A study of Mus musculus with 12 samples.

Results

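Loss of Max in otherwise normal splenic B cells was read from 6 RNA-seq libraries of a 12-library series, 3 from Max WT mice and 3 from Max KO mice. Both groups were chosen by their genotype labels alone. Each library holds B220+ splenocytes of 1 mouse aged 4 to 5 weeks. Max WT mice carry intact Max, and Max KO mice are conditional Max knockouts. Neither group carries the EuMyc transgene. The remaining 6 libraries come from EuMyc Max WT and EuMyc Max KO mice, 3 of each, whose transgene places Myc under the enhancer of the immunoglobulin heavy chain locus, active in the B lineage. The series title calls these cells premalignant. They entered the count filter, the scaling, the model's estimate of spread and a closing comparison. Not known are the Cre line that deletes Max, the deleted exons and the time from deletion to collection: none is stated in the sources used here. Of the 24421 genes in the tables, 12878 passed the count filter and were tested.

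MAX is a small basic helix-loop-helix zipper protein that has no activation domain of its own. It pairs with MYC, MYCN or MYCL to activate genes, and with MXD1, MXI1, MXD3, MXD4, MNT or MGA to repress them, and all of these pairs bind the E-box motif CACGTG. MYC and MNT need MAX to bind DNA at most sites, so its removal takes away activators and repressors together. In B cells MYC is low at rest and is induced on activation and in the germinal centre, the site where B cells divide, mutate their antibody genes and are selected.

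Assigned reads in these 6 mice ran from 14973332 to 17647732 a library. B cell markers were high in all of them, with a summed level of 21920 to 24850 CPM (read counts scaled to a common library size) in Max WT and 21790 to 22190 in Max KO over 12 genes. Other cells were also present. Monocyte and macrophage markers summed to 3498 to 4485 CPM in Max WT and 5465 to 8109 in Max KO. Of these 22 markers, 7 were called higher in Max KO (Csf1r, Adgre1, Fcgr1, Fcgr3, Mrc1, Spic and Apoe), and 2 to 10 were when a library was left out, with the fewest without Max WT library 1. With DESeq2 15 were called higher, and 16 were higher in all 3 Max KO libraries. Over all tested genes, 7.27% were called higher and 18% lay higher in all 3 Max KO libraries than in every Max WT library. Dendritic cell markers summed to 1156 to 1221 CPM against 1446 to 1850, with 3 of 17 called higher (17.6%), all of them conventional. The 8 conventional markers summed to 288 to 333 CPM against 407.7 to 575.8. The 9 plasmacytoid markers summed to 867.5 to 921.7 CPM against 986.7 to 1274, with 0 called and 0 higher in all 3 Max KO libraries. Neutrophil markers summed to 14.06 to 23.78 CPM in Max WT and to 33.42, 179 and 30.0 in the 3 Max KO libraries, so that Max KO library 2 stood apart. All 11 had a positive fold change, and 5 were higher in all 3 Max KO libraries. A marker near 0 in Max WT could pass the filter only by being high in another group, so the tested markers are not a fair sample. Called higher were 2 of the 11 (18.2%). Of these Csf3r (8.31, 6.76 and 7.57 against 15.9, 17 and 11.5 CPM) kept its call in every fit that left out 1 of the 6 libraries, Max KO library 2 included, while Cxcr2 lost it without any but Max KO library 3 (adjusted p up to 0.0754). S100a8, a neutrophil gene, measured 1.81, 19.2 and 2.86 CPM in Max KO. Of 11 NK cell markers 0 were called, or 4 with only these 6 libraries in the fit. Their median was 0.74, 6 were higher in all 3 Max KO libraries, and their sums did not overlap (27.74 to 43.65 against 48.74 to 68.9 CPM). Erythroid markers had no calls, and of 14 T cell markers only Cd2 was called, lower, and not without Max WT library 1 or 2 or Max KO library 1 or 2 (adjusted p up to 0.0905). Libraries 1 and 3 of each group had Xist and libraries 2 had Y-linked transcripts, so female and male mice were balanced between the groups. Fewer cells of a type and less RNA per cell cannot be told apart in bulk RNA.

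The targeted gene was examined first. Max (chr12:76937269-76962201, mm10, minus strand) measured 138, 110 and 108 CPM in the Max WT libraries and 102, 102 and 99.8 CPM in the Max KO libraries. All Max KO libraries lay below all Max WT libraries, but by only 1.18-fold. The log2 fold change was -0.23 (SE 0.08) and missed the threshold (adjusted p = 0.0623). A count over the whole gene includes exons that a conditional allele may keep, so it does not check how completely Max was removed.

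Of the 11 tested genes of MAX and its partners 4 were called, all higher (36.4%, against 7.27% of all genes). Of these 4, 3 encode repressors. Mga, which encodes a large protein with both a T-box and a MAX-binding domain, measured 207, 243 and 245 CPM in Max WT and 406, 363 and 440 CPM in Max KO. Its groups did not overlap, and it rose by 0.80 on the log2 scale (SE 0.11, adjusted p = 0.000886). Mnt, the most widely expressed repressive partner, measured 82.8, 70.0 and 71.8 CPM against 126, 126 and 120 CPM. It rose by 0.73 (SE 0.09, adjusted p = 0.00036), again without overlap. Mxd4 rose by 0.31 (SE 0.07, adjusted p = 0.00998), a call that missed the threshold without Max KO library 1 (adjusted p = 0.0535). Myc itself measured 115, 96.0 and 106 CPM in Max WT and 136, 124 and 120 CPM in Max KO, without overlap. Its log2 fold change of 0.26 (SE 0.08) was at the edge of the threshold (adjusted p = 0.0483), and the call was lost when any 1 of 5 libraries was left out (adjusted p up to 0.185; the exception was Max WT library 1). Mxd1, Mxi1, Mxd3 and Mycl were not called. Mxd3, a repressor of dividing cells, had the largest difference of these 4 at -1.14 (SE 0.57, adjusted p = 0.208), with 3.15, 3.69 and 3.81 CPM against 1.58, 2.37 and 0.914 CPM. Mlx and Mlxip, of the parallel network that senses glucose, were not called either (log2 fold changes of -0.04 and 0.10). Mycn and Mlxipl did not pass the filter, with at most 1 read in any of the 6 libraries.

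**Figure D1:**
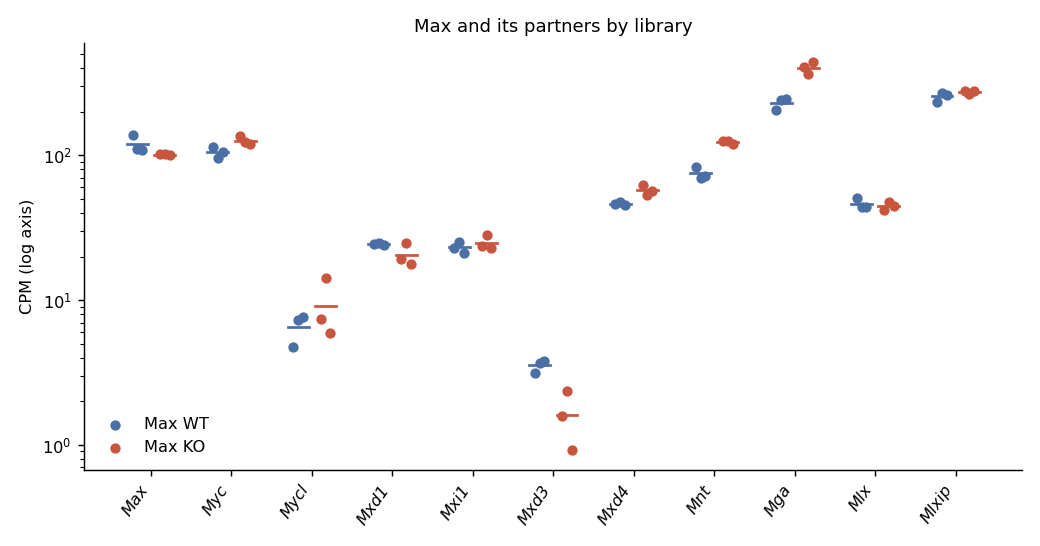
CPM on a log axis for Max and 10 partner genes; points are the 3 Max WT (blue) and 3 Max KO (red) libraries and bars are group means. Mga, Mnt, Mxd4 and Myc are higher in all 3 Max KO libraries, and levels are to be compared within a gene, not between genes.

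Across all genes, 1933 of 12878 (15%) differed between Max KO and Max WT at an adjusted p under 0.05. Of these 936 were higher (7.27%) and 997 lower (7.74%). Scaling by library totals in place of TMM gave 1130 higher and 719 lower. Changes were mostly small: 226 genes were more than 2-fold higher (1.75%) and 186 more than 2-fold lower (1.44%). Without regard to the test, all 3 Max KO libraries lay above all 3 Max WT libraries for 2318 genes (18%) and below them for 2594 (20.1%). The median log2 fold change over all tested genes was -0.003. The count depended on single libraries: it was 808 without Max WT library 1, 889 without Max KO library 1, 1060 without Max KO library 2 and 1206 without Max WT library 3. Of the 1933 genes, 663 were called in each of the 6 fits that left out 1 library, 330 higher and 333 lower. A gene named below as having risen or fallen kept its call in all 6 of those fits unless stated.

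**Figure D2:**
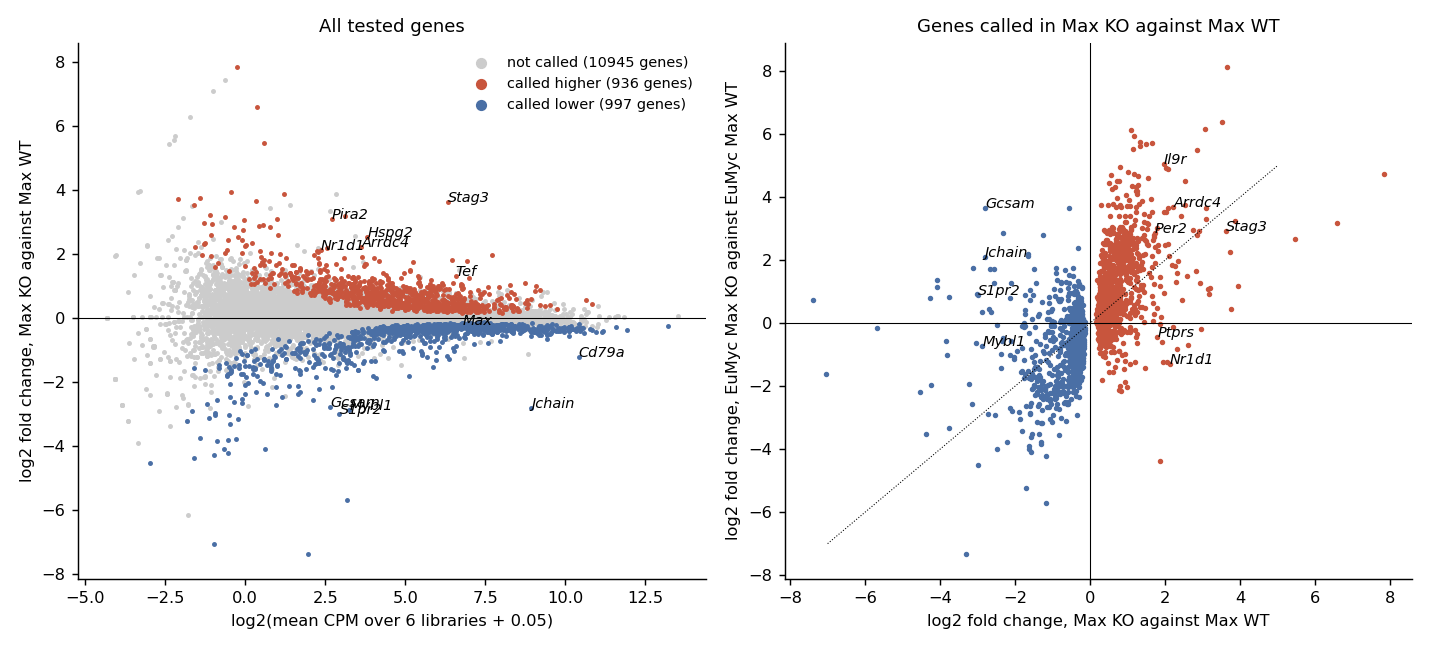
Left, log2 fold change of Max KO against Max WT by log2(mean CPM + 0.05) for all 12878 tested genes, with 936 called higher (red) and 997 called lower (blue). Right, the same fold change for the 1933 called genes against that of EuMyc Max KO over EuMyc Max WT, where the dotted line marks equal change.

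Stag3 had the highest fold change among called genes of at least 5 CPM. It lies at chr5:138280240-138312393 on the plus strand and encodes a cohesin subunit of meiotic cells. It measured 10.3, 16.7 and 9.47 CPM in Max WT and 155, 146 and 147 CPM in Max KO, a 12.3-fold rise (log2 3.62, SE 0.18, adjusted p = 2.0e-06). Pira2, an activating paired immunoglobulin-like receptor, followed at 0.63, 1.71 and 1.79 against 13.4, 11.4 and 10.2 CPM (log2 3.08, SE 0.45). Pira genes are near-identical copies, so reads could be split among them. Hspg2, which encodes the basement membrane proteoglycan perlecan, rose from 4.30, 3.13 and 5.00 to 24.5, 24.7 and 22.9 CPM (log2 2.53, SE 0.22). In each of these 3 genes the lowest Max KO library was more than 4-fold above the highest Max WT library.

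Arrdc4, an alpha-arrestin that limits glucose uptake, rose by 2.22 on the log2 scale (SE 0.23), from 4.64, 4.60 and 3.81 to 19.1, 23.6 and 18.1 CPM. Its better known relative Txnip did not pass the test (-0.27, SE 0.11, adjusted p = 0.114). Il9r, the receptor for interleukin 9, measured 70.7, 94.0 and 92.1 CPM against 305, 357 and 334 CPM and rose by 1.95 (SE 0.20). The other large rises were in the calcium-dependent kinase gene Camk2a (1.89), the pyruvate carboxylase gene Pcx (1.85), the collagen gene Col14a1 (1.81), the receptor phosphatase gene Ptprs (1.78), the Wnt receptor ubiquitin ligase gene Znrf3 (1.78) and Tbc1d24 (1.69). Ptprs had one of the smallest p-values of the comparison (45.2, 59.6 and 60.6 against 194, 203 and 173 CPM, adjusted p = 1.78e-06). Naip5, a sensor of bacterial flagellin in macrophages, stood at 1.67 (SE 0.49, adjusted p = 0.049), and its call was lost without any 1 of 5 libraries (adjusted p up to 0.159; the exception was Max KO library 3). The macrophage marker levels given above moved with it, and their part was not tested.

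The E-box was more frequent in promoters of genes that rose than in those of other genes. RefSeq windows from 250 bases before to 50 after the annotated start (GRCm38.p6) were matched for 9855 of the tested genes, and CACGTG, which reads the same on both strands, was searched in each. Of all 9855 windows, 10.4% held it. The share was 19.6% among genes called higher (141 of 720), 8.9% among those called lower (69 of 775) and 9.69% among those not called (810 of 8360). It was 30.8% for genes called higher in all 6 fits that left out a library (81 of 263) and 48.0% for the 50 higher genes with the smallest p (24 of 50). For higher genes over 2-fold it was 17.9% (29 of 162), no more than for all higher genes. For lower genes called in all 6 fits and for the 50 with the smallest p the shares were 7.52% (20 of 266) and 10% (5 of 50).

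The following 30-base stretches are shown because they hold the motif (capitals) in promoters of genes with large or significant increases; each is written 5′ to 3′ on the strand of the gene, with its RefSeq position:
Stag3, chr5:138280327-138280356, plus strand: cgcgctggagccCACGTGacaggactgcac
Ptprs, chr17:56476597-56476626, minus strand: gggcCACGTGtcccacgtccCACGTGctcc
Arrdc4, chr7:68749414-68749443, minus strand: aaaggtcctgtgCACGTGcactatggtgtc
Mnt, chr11:74830789-74830818, plus strand: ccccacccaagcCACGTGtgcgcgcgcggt
Pogk, chr1:166409814-166409843, minus strand: ctcccctcccacCACGTGtcctcgctccct
Amigo1, chr3:108186257-108186286, plus strand: gacaaacacacgCACGTGcgccccgccccc
Eif5a2, chr3:28781123-28781152, plus strand: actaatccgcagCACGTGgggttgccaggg
Adamts17, chr7:66839550-66839579, plus strand: ctgcctagaaacCACGTGtaagaaagtgct
Counted from the start, with negative positions upstream, the motif begins at -170 in Stag3, -193 in Arrdc4, -123 in Mnt, -3 in Pogk and -20 in Amigo1. Ptprs has 3 copies, at -142, -126 and -91. The Stag3 and Pogk stretches overlap exons of GENCODE vM21, and the other 6 do not.

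The last 4 of these genes were chosen after their values were seen. Pogk, a transposase-derived gene with a KRAB domain, rose from 14.9, 18.0 and 19.5 to 41.0, 40.6 and 42.7 CPM (log2 1.25, SE 0.09). Amigo1, a neuronal adhesion gene, rose by 1.67 (SE 0.14), and Eif5a2, a second gene for the translation factor eIF5A, by 1.18 (SE 0.11). Adamts17, a secreted metalloprotease gene, was close to 0 in Max WT, with 0, 0 and 3 reads, and had 41, 46 and 58 reads in Max KO. The ratio of summed reads was 49.3 with a 95% exact binomial interval of 16.5 to 242, which covers counting error only.

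The motif's position also differed by group. Within the first 50 bases after the start, 6.25% of higher genes held it, against 1.42% of lower genes and 1.69% of genes not called. In the bin farthest upstream, 250 to 200 bases before the start, the shares were 0.972%, 1.03% and 1.1%. Median GC content of the windows was close (60.7% for higher, 61.0% for lower and 60.7% for genes not called). Within the third of windows with the highest GC content, the E-box share was 21.1% for higher, 11.4% for lower and 11.5% for genes not called. Read the other way, 13.8% of the 1020 genes with the motif were called higher and 6.76% lower, while of the 8835 genes without it 6.55% were higher and 7.99% lower. CAGCTG, another E-box form that was searched after the first results were seen, was in 15.1%, 13% and 14.9% of the 3 groups. The E2F-type motifs GCGGGAA and TTCCCGC were in 7.78%, 10.3% and 8.47%. Of the 15 genes with the largest increases, 11 had a window and 6 of them held CACGTG (Arrdc4, Ciart, Pcx, Ptprs, Stag3 and Tbc1d24). Of the 15 with the largest decreases, 12 had a window and 0 held it.

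**Figure D3:**
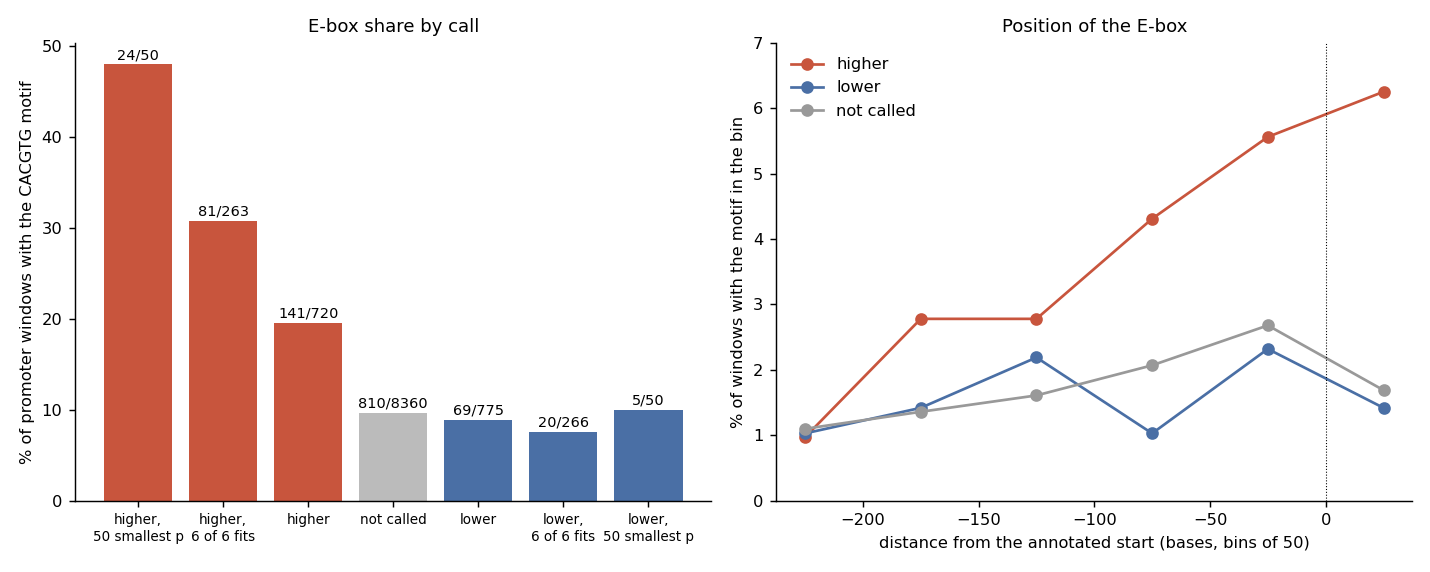
Left, share of promoter windows that hold CACGTG by call in Max KO against Max WT, with the number of windows on each bar; it is 48.0% for the 50 higher genes with the smallest p and 9.69% for genes not called. Right, share of windows with the motif by 50-base bin; in the bin after the start it reaches 6.25% for higher genes (red) and stays below 2% for the others.

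Most genes of the circadian clock were higher. The clock is a loop in which the CLOCK and BMAL1 (Arntl) pair activates Per, Cry and Nr1d genes through E-boxes, and their products then repress that pair. Of 17 tested clock genes 11 rose (64.7%, against 7.27% of all genes) and 1 fell (5.88%, against 7.74%). The median log2 fold change was 0.54 against -0.003 for all genes. Between 9 and 11 were called higher in the fits that left out a library. Of the 10 repressors of the loop, 8 rose. Nr1d1, which encodes REV-ERB alpha, measured 1.78, 1.65 and 2.32 CPM in Max WT and 8.87, 8.63 and 7.49 CPM in Max KO, a 4.35-fold rise (log2 2.12, SE 0.16, adjusted p = 8.83e-06). It overlaps Thra on the opposite strand, and reads of the pair may be mixed, as the strand setting is not known. Ciart rose by 2.19 (SE 0.25), from 1.6, 3.01 and 1.61 to 8.92, 7.80 and 11.7 CPM. Per2 rose by 1.73 (SE 0.11), from 16.1, 16.6 and 19.5 to 57.8, 52.0 and 63.1 CPM. For all 3 genes every Max KO library was more than 2-fold above every Max WT library.

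Smaller rises were seen in Nr1d2 (1.05), Cry2 (0.68), Per3 (0.66), Per1 (0.54) and Cry1 (0.45). The Per3 call was lost without Max KO library 1 (adjusted p = 0.0509). Bhlhe40 had a log2 fold change of 0.66 (SE 0.22, adjusted p = 0.0648) and Bhlhe41 one of -0.24 (adjusted p = 0.283), and neither passed. Among the output factors, Tef rose 2.50-fold, from 52.3, 57.2 and 54.6 to 133, 133 and 144 CPM (log2 1.32, SE 0.07, adjusted p = 1.78e-06), and Dbp by 0.51 (SE 0.10). On the activating arm, Arntl fell by 0.57 (SE 0.11), from 41.8, 39.5 and 34.4 to 27.7, 28.7 and 21.4 CPM. Clock was called higher at 0.32 (adjusted p = 0.0397), a call lost without any library other than Max WT library 3 (adjusted p up to 0.162). The hour of collection is not stated in the labels, and it can set the level of these genes; its part was not tested. Windows were matched for 15 of the tested clock genes, and 5 of these held CACGTG, where 10.4% of all windows did. Of the 10 higher genes among the 15, 4 held it: Ciart, Cry1, Per1 and Tef. Their motif stretches are shown for comparison with those above:
Ciart, chr3:95882262-95882291, minus strand: ggaggCACGTGcagaaccgCACGTGtctgg
Tef, chr15:81802534-81802563, plus strand: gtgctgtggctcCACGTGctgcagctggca
Per1, chr11:69098771-69098800, plus strand: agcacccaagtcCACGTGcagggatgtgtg
Cry1, chr10:85185097-85185126, minus strand: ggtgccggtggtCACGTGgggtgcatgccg
The Tef stretch overlaps GENCODE exons of Tef and of Gm17597, and the other 3 overlap none. The Per1 stretch lies within the GENCODE gene Per1 (chr11:69095217-69109960, plus strand), upstream of a RefSeq start inside that gene. In Ciart the shown pair begins at -58 and -44, and a further copy at -116.

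Several of the largest decreases were in germinal centre genes. Nuggc, a germinal centre GTPase gene, had 109, 135 and 155 reads against 2, 0 and 0, a ratio of Max WT to Max KO reads of 196 (95% exact binomial interval 53.8 to 1620, counting error only). S1pr2, the sphingosine receptor that keeps B cells inside germinal centres, fell 8.04-fold, from 13, 14 and 13.8 to 1.81, 1.79 and 1.49 CPM (log2 -3.00, SE 0.20). Both genes were low in every Max KO mouse and high in every Max WT mouse.

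Mybl1, a transcription factor of dividing germinal centre cells, fell by 2.87 (SE 0.27), from 10.8, 19.7 and 19.5 to 2.48, 1.53 and 2.74 CPM. Gcsam, a signalling adaptor of the germinal centre, fell by 2.80 (SE 0.30), from 10.6, 11 and 11.1 to 1.52, 2.04 and 1.14 CPM. Mef2b (-2.66) and Eaf2 (-2.15) also fell, and the repair glycosylase gene Neil1 fell by 0.74. Of 37 tested germinal centre genes 12 were lower (32.4%, against 7.74% of all genes). The 3 higher genes (Ung, Tet1 and Sema7a) made 8.11%, near the 7.27% of all genes. The median log2 fold change was -0.18, and 9 to 11 genes were lower when a library was left out. The fall did not extend to the whole list. Bcl6, the factor on which germinal centre B cells depend, measured 97.1, 92.7 and 92.1 CPM against 78.0, 72.3 and 88.5 CPM (log2 -0.24, SE 0.10, adjusted p = 0.135). Fas (-0.27, adjusted p = 0.457), Bach2 (-0.10), Pou2af1 (0.08) and Mef2c (-0.07) did not pass either. Ung, the glycosylase that removes uracil from DNA, rose by 0.65 (SE 0.08), from 10.9, 10.8 and 11.2 to 17.2, 18.0 and 16.4 CPM. Tet1 and Sema7a were called higher, and each lost its call without any 1 of 4 libraries, Max WT libraries 1 and 3 and Max KO libraries 1 and 3 (adjusted p up to 0.104).

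Plasma cell genes were lower in part. Jchain, which links secreted IgM and IgA, measured 508, 926 and 1148 CPM in Max WT and 73.8, 187 and 106 CPM in Max KO. The groups did not overlap and the ratio of means was 7.03, but the libraries spread widely (log2 -2.82, SE 0.66, adjusted p = 0.0253). The call was lost without Max WT library 2 or 3 or Max KO library 1 or 3 (adjusted p up to 0.0941). Fkbp11, a chaperone of antibody-secreting cells, fell by 2.36 (SE 0.47), and Sdc1, the plasma cell surface marker CD138, by 1.02 (SE 0.19; 29.7, 46.4 and 35.3 against 13.8, 20.3 and 20.7 CPM). Derl3, of the same secretory pathway, rose by 1.46 (SE 0.29), from 13.6, 19.7 and 22.7 to 44.2, 53.1 and 57.2 CPM. Of 17 tested plasma cell genes 7 were lower (41.2%, against 7.74% of all genes) and 1 higher (5.88%, against 7.27%). Between 2 and 6 were lower when a library was left out, with the fewest without Max WT library 2 or 3 or Max KO library 1. With library totals 3 were lower. Prdm1, the factor that drives plasma cell formation, did not pass (-0.33, SE 0.24, adjusted p = 0.383). Among memory B cell genes, Nt5e (CD73) fell by 2.12 (4.13, 3.81 and 4.59 against 1.75, 0.511 and 0.571 CPM) and Sspn by 0.99, while Pdcd1lg2 (PD-L2) rose by 0.97.

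Other genes among the 15 largest decreases had varied roles. They were the basement membrane gene Nid1 (-1.82), Irgc1 (-1.82), the collagen gene Col27a1 (-1.77), Diras2 (-1.61), the GABA-synthesising enzyme gene Gad1 (-1.6) and the replication initiation gene Mcm10 (-1.58). Nid1 measured 46.5, 60.4 and 54.1 CPM against 11.8, 16.9 and 16.8 CPM. Hmmr (-1.65), Nuf2 (-1.63) and the neurotrophin receptor gene Ngfr (-1.63) were called but lost the call without single libraries. The highest adjusted p was 0.097 for Hmmr (lost without any of the 6), 0.0625 for Nuf2 (Max WT library 3 and Max KO library 1) and 0.0756 for Ngfr (any but Max WT library 2).

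**Figure D4:**
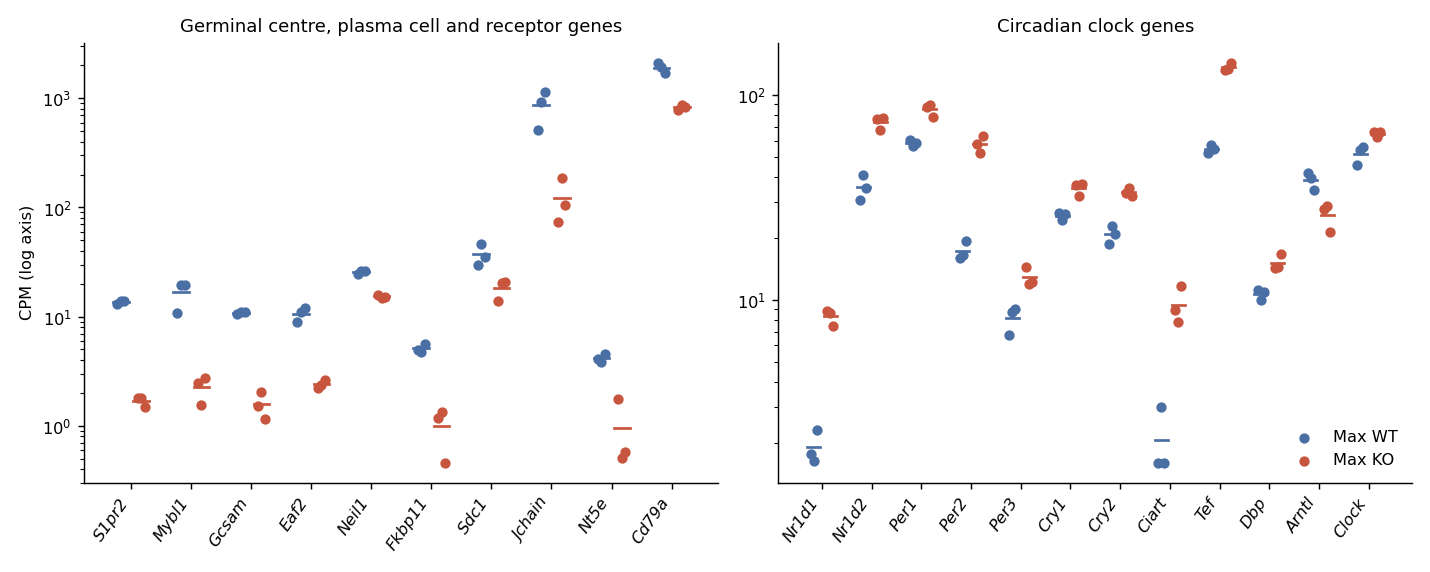
CPM on a log axis by library, Max WT in blue and Max KO in red, with group means as bars. Left, 10 germinal centre, plasma cell, memory and receptor genes, all lower in every Max KO library; right, 12 clock genes, 11 of them higher in every Max KO library and Arntl lower.

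Genes of dividing cells were lower as a group. Of 59 tested genes of G2 and mitosis, 24 were called lower (40.7%, against 7.74% of all genes) and 0 higher. In 58 of the 59 all 3 Max KO libraries lay below all 3 Max WT libraries, against 20.1% of all genes. Their median log2 fold change was -0.93. The count depended on single libraries: 4 to 9 were called lower when any 1 was left out, with the fewest without Max WT library 3. It was 13 with no filter on low counts, 44 with DESeq2 and 47 with only these 6 libraries in the fit. Bub1b, a spindle checkpoint kinase gene, fell by 1.40 (SE 0.26), from 17.1, 17.6 and 21.1 to 8.53, 6.26 and 6.34 CPM. Ckap2l (-1.55), Nek2 (-1.07) and Cks1b (-0.92) also fell. Mki67, the common marker of dividing cells, measured 130, 178 and 172 CPM against 73.6, 76.6 and 51.5 CPM, and its log2 fold change of -1.25 (SE 0.38) missed the threshold (adjusted p = 0.055). Of 52 replication genes 21 were lower (40.4%) and 0 higher, with a median of -0.39. Without Max WT library 1, Max WT library 3 or Max KO library 1 the count was 11, and without Max KO library 2 it was 12. The chromatin assembly gene Chaf1b fell by 1.07, the helicase cofactor Cdc45 by 0.95, and Cdca7 by 0.79. The abundant licensing gene Mcm3 did not pass (112, 101 and 111 against 108, 103 and 105 CPM, log2 -0.03).

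Of 24 tested regulators of G1, 2 were higher and 2 lower, a share of 16.7% that is near the 15% of all genes. Ccnd2, the D cyclin of resting and activated B cells, rose 1.82-fold, from 116, 106 and 109 to 219, 192 and 191 CPM (log2 0.86, SE 0.10). Cdk4 (-0.28) and Cdk2 (-0.42) fell. Ccne2 was called higher at 0.92 (adjusted p = 0.04), a call lost without any of the 6 libraries (adjusted p up to 0.123). None of 6 tested CDK inhibitors and none of 10 E2F and RB family genes was called.

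Genes of protein synthesis and mitochondrial respiration were lower by small amounts. Of 79 cytosolic ribosomal protein genes, 58 were lower (73.4%, against 7.74% of all genes) and 0 higher. All 79 had a negative fold change, with a median of -0.35. Their summed level was 82840, 68330 and 77490 CPM in Max WT and 57850, 60020 and 61570 CPM in Max KO, so the groups did not overlap. The count fell to 25 without Max WT library 1 or Max KO library 1 and to 36 without Max WT library 3. Rpl32 fell by 0.67 (937, 746 and 883 against 526, 506 and 578 CPM), Rpl18 by 0.50 and Rps18 by 0.47. Ribosomal protein genes have many processed copies in the genome, so their reads are uncertain. Of 33 translation factor genes 21 were lower (63.6%) and 0 higher, with a median of -0.25. Eif4a1 fell by 0.36, Eif5a by 0.42 and Eef1b2 by 0.44. The count was 9 without Max WT library 1, 11 without Max KO library 1, 12 without Max KO library 2 and 13 without Max WT library 3. Of 76 oxidative phosphorylation genes 28 were lower (36.8%) and 0 higher, with a median of -0.21. This count was 4 without Max WT library 1, 6 without Max KO library 1 and 15 without Max KO library 2 or Max WT library 3, and it was 18 with library totals and 19 with the replicate number as a term. Cycs and Sdhb each fell by 0.30.

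Classical MYC-linked growth genes were affected in part. Of 53 tested, 18 were lower (34%, against 7.74% of all genes) and 3 higher (5.66%, against 7.27%). The median was -0.12, and 13 to 19 were lower when a library was left out. Ncl, which encodes nucleolin, measured 792, 699 and 800 CPM against 563, 555 and 561 CPM and fell by 0.45 (SE 0.07). Phgdh, the first enzyme of serine synthesis, fell by 0.50 (SE 0.05), Pa2g4 by 0.52 and the telomerase and snoRNP component gene Dkc1 by 0.43. In each of these the Max KO libraries lay close together and below all Max WT libraries. The 3 higher genes were the ribosome processing gene Rrp12 (0.68), the cytosolic serine hydroxymethyltransferase gene Shmt1 (0.99) and the hexokinase gene Hk2 (0.65). Odc1, a long-known MYC target, had a log2 fold change of 0.36 (SE 0.14, adjusted p = 0.116), and Ldha one of 0.08.

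The B cell receptor and its signalling chains were next compared. Cd79a (chr7:24897381-24902197, plus strand), one of the pair of chains that signal for the receptor, measured 2122, 1937 and 1691 CPM in Max WT and 778, 862 and 835 CPM in Max KO. It fell 2.32-fold without overlap (log2 -1.22, SE 0.10, adjusted p = 1.63e-05). The Cre line commonly used in B lineage cells, mb1-Cre, is inserted into Cd79a and disrupts that copy; whether it was used is not stated in the labels, and its part was not tested. Cd79b, the other chain, was called lower at -0.36 (SE 0.10, adjusted p = 0.0362), and the call was lost without any library but Max KO library 3 (adjusted p up to 0.146) and with library totals. Ms4a1 (-0.13), Cd22 (0.04), Pax5 (-0.06) and Ebf1 (-0.01) did not pass. The list of 38 receptor and coreceptor genes had 5 higher and 5 lower (13.2% each). Over all genes 7.27% were higher and 7.74% lower. Of its 11 inhibitory coreceptors 4 were higher and 1 lower. Pirb rose by 0.88 (37.8, 43.6 and 38.8 against 78.0, 79.5 and 64.0 CPM) and Cd72 by 0.45, while Fcrla fell by 0.38. Pirb is also expressed by myeloid cells, whose markers were higher in Max KO as given above, and their part was not tested. Of 20 proximal kinases and adaptors 2 were called, a smaller share than the 15% of all genes. These were Syk (-0.20) and Btk (-0.22), both lower. Both calls were lost without Max WT library 1 or 3 or Max KO library 1 or 2, and for Syk also without Max WT library 2 (adjusted p up to 0.119).

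Genes of B cell subsets and positioning moved in both directions. Of 23 marginal zone genes 7 were higher and 1 lower (median 0.20). The list of 33 that also holds follicular genes had 8 higher (24.2%, against 7.27% of all genes) and 2 lower (6.06%, against 7.74%). Between 3 and 7 of the 33 were called higher when a library was left out. All 6 of those fits kept 3 of the 8 higher calls and the 2 lower calls. Cd1d1, which presents lipids, rose by 0.54 (58.7, 65.5 and 57.4 against 98.2, 87.0 and 79.3 CPM), the Notch target Dtx1 by 0.59 and the cytokine subunit gene Ebi3 by 0.61. Cr2 (CD21) was called at 0.56 with 1236, 1339 and 1342 against 1986, 1601 and 2188 CPM (adjusted p = 0.045), and the call was lost without any library but Max KO library 2 (adjusted p up to 0.153) and with a term for sex. Plac8 fell by 0.43. Klf2, a factor that keeps follicular B cells quiescent, fell by 0.78 (SE 0.16), from 283, 236 and 215 to 137, 163 and 126 CPM. Cd93, carried by transitional B cells, fell by 0.70, and Bst1 rose by 1.05. Beside S1pr2, the homing receptor genes Cxcr4 (188, 189 and 166 against 116, 101 and 94.1 CPM, log2 -0.81) and S1pr4 (-0.64) fell. S1pr1 (-0.07) and Cxcr5 (0.16) did not pass.

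Cytokine signalling, NF-kB and antigen presentation genes were higher in part. Of 43 cytokine receptor and JAK-STAT genes 9 were higher (20.9%, against 7.27% of all genes) and 2 lower (4.65%, against 7.74%). All 6 fits that left out a library kept 3 of the 9 higher calls. Beside Il9r, Jak3, the kinase of the common gamma chain, rose by 0.75 (117, 136 and 122 against 187, 237 and 207 CPM) and Il6ra by 0.57, while Il17ra fell by 0.39. Pim1 was called lower at -1.16 (adjusted p = 0.019; lost without Max WT library 1 or 3 or Max KO library 2 or 3, adjusted p up to 0.0556). The higher count was 3 without Max KO library 1, 4 without Max WT library 1 or Max KO library 2 and 5 without Max WT library 2. Of 40 NF-kB genes 10 were higher (25%) and 2 lower (5%). Between 4 and 8 were higher when a library was left out, fewest without Max KO library 1. All 6 of those fits kept 4 of the 10 higher calls. Lta, a lymphotoxin gene, rose by 0.57, the chemokine gene Ccl22 by 1.32 and the inhibitor gene Nfkbie by 0.38. Summed macrophage and dendritic cell markers were higher in Max KO as given above, and their part in these rises was not tested. Of 14 MHC class I genes 5 were higher (35.7%) and 0 lower. When a library was left out 2 or 3 were called higher, and 2 of the 5 held in all 6 fits. H2-K1 rose by 0.44 (1628, 1439 and 1555 against 2156, 2071 and 2057 CPM) and H2-Q4 by 0.60, though these genes share sequence and their reads may be split. Of 10 MHC class II genes 0 were called, at log2 fold changes of 0.02 for H2-Aa, 0.05 for H2-Ab1 and 0.07 for Cd74. Interferon-response genes were not higher as a list: 3 of 31 were called higher (9.68%, against 7.27% of all genes) and 0 lower, and the median was -0.13. Of the 3, Iigp1 (1.44) kept its call in all 6 fits. The immediate early gene Egr1 fell by 0.67 (86.1, 79.5 and 67.3 against 46.1, 49.7 and 51.0 CPM).

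In the BCL2 family, which sets the threshold for cell death, 4 of 15 tested genes were higher (26.7%, against 7.27% of all genes). The 1 lower gene made 6.67%, against 7.74% of all genes. Bmf, a death-promoting BH3-only gene, fell 2.11-fold, from 93.1, 82.6 and 79.5 to 43.1, 34.1 and 43.6 CPM (log2 -1.08, SE 0.11, adjusted p = 9.1e-05). Bbc3 (PUMA), of the same class, rose by 0.87 (3.55, 2.96 and 2.62 against 5.42, 6.65 and 4.69 CPM), and Bid by 0.32. The survival gene Bcl2 was called higher at 0.40 (lost without Max WT library 1 or Max KO library 3, adjusted p up to 0.0697), and so was Bcl2a1b at 0.94 (lost without Max KO library 1, adjusted p = 0.0508). Mcl1 (-0.06) and Bcl2l11 (BIM, -0.09) did not pass. Trp53 was called lower at -0.29 (adjusted p = 0.0298; lost without Max WT library 1 or Max KO library 2 or 3, adjusted p up to 0.127), and the p53 target Cdkn1a was not called (-0.14).

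MGA and MAX are both subunits of PRC1.6, a Polycomb complex that silences germline genes in other cells. Of 36 listed germline genes, 12 passed the filter and 24 did not, the latter with at most 9 reads in any of the 6 libraries. A gene near 0 in Max WT could pass only by being high in another group, so the tested members are not a fair sample of the list. Of the 12, 5 were called higher (41.7%, against 7.27% of all genes) and 0 lower. Negative fold changes were found in 4 of the 12. Among them were Tex11 (-1.23, adjusted p = 0.426) and Syce1 (-1.18, adjusted p = 0.296), which did not pass. Beside Stag3, the histone reader gene Zcwpw1 rose by 0.74 (28.0, 31.7 and 30.3 against 55.2, 51.2 and 44.3 CPM), the synaptonemal complex gene Syce2 by 0.99 and the piRNA factor gene Tdrkh by 0.99. Smc1b was called at 1.21 on 0.917, 0.398 and 0.536 against 1.58, 1.47 and 1.26 CPM, and its call was lost without any library but Max WT library 1 (adjusted p up to 0.134). Dazl, Stra8, Mael and Tdrd1 had at most 4 reads in any of these libraries, and Sycp3 at most 8. Of 13 PRC1.6 subunit genes only Rybp was called (7.69%, against 15% of all genes), higher by 0.35 (SE 0.07). Pcgf6 (0.06), L3mbtl2 (0.06) and E2f6 (0.25, adjusted p = 0.0626) did not pass.

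Lysosomal genes, which the MiT/TFE factors activate through a motif that contains CACGTG, were mostly not called. Of 56 tested, 8 were higher (14.3%, against 7.27% of all genes) and 1 lower (1.79%, against 7.74%), with a median of 0.08. A positive fold change was found in 42 of the 56. In 23 of them all 3 Max KO libraries lay above all 3 Max WT libraries, against 18% of all genes. None of 16 proton pump genes and none of 10 FLCN and RAG genes was called. Hexa, a hydrolase gene, rose by 0.53 (108, 102 and 118 against 156, 172 and 145 CPM), Ctss by 0.38 and the factor gene Mitf by 1.06. Between 4 and 8 were higher when a library was left out, with the fewest without Max KO library 1, and 12 were higher with library totals. Of 44 genes with a window 14 held CACGTG, among them Gaa and Lamp1 of the 6 higher genes with a window. The Lamp1 call was lost without any of the 6 libraries (adjusted p up to 0.121). Macrophages also express lysosomal genes strongly, and their markers moved in the same direction; this was not tested. In sterol metabolism, Mvd rose by 0.70 and Mylip fell by 0.49, while Apoe, also counted among the macrophage markers, rose by 1.09 (256, 256 and 316 against 529, 741 and 494 CPM).

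**Figure D5:**
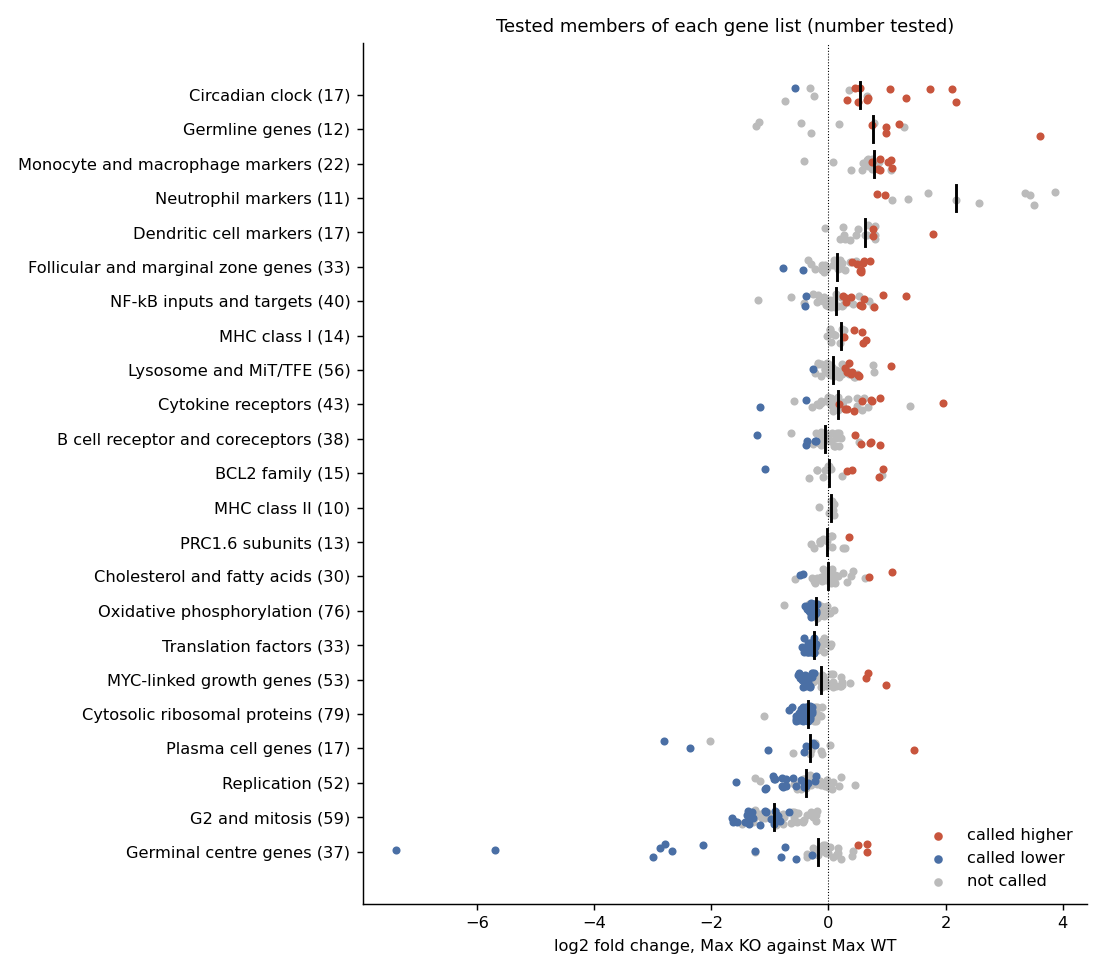
Log2 fold change of Max KO against Max WT for every tested member of 23 gene lists (number tested in brackets), coloured by call, with each list's median as a black line. The clock median lies at 0.54 and that of G2 and mitosis at -0.93, while neutrophil markers spread widely and 1 Max KO library stood apart in them.

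The same deletion was also made with the EuMyc transgene, in libraries that share no mouse with those above. There 9494 genes (73.7%) were called, 4845 higher (37.6%) and 4649 lower (36.1%). Of the 936 genes that were higher in Max KO, 690 (73.7%) were also higher in EuMyc Max KO, 113 (12.1%) were lower and 133 (14.2%) were not called. Of the 997 lower genes, 733 (73.5%) were also lower, 117 (11.7%) were higher and 147 (14.7%) were not called. The 1423 genes called in the same direction in both are 73.6% of the first list and 15% of the second. Across the 12878 genes the fold changes of the 2 comparisons had a Pearson r of 0.477 and a Spearman rho of 0.483, a description over genes that are not independent. The difference between both effects of Max loss was itself called for 7175 genes (55.7%). The EuMyc groups were not balanced for sex: all 3 EuMyc Max WT libraries and 1 of the EuMyc Max KO libraries had Y-linked transcripts, and the other 2 had Xist. With a term for sex 6700 genes were called.

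Several germinal centre genes differed between the backgrounds. S1pr2 fell by 3.00 without the transgene and rose by 0.89 with it, a difference of -3.89 (adjusted p = 3.3e-07). Gcsam fell by 2.80 in one and rose by 3.66 in the other (difference -6.46). Nr1d1 and Ptprs rose without the transgene and fell with it (-1.30 and -0.43). Mga (0.80 and 0.76) and Mnt (0.73 and 0.62) rose in both, and their differences of 0.04 (SE 0.16) and 0.11 (SE 0.13) were not called. Cell cycle lists had negative medians in both, of -0.93 and -1.73 for G2 and mitosis and of -0.39 and -1.66 for replication. The E-box share did not separate the EuMyc calls in the same way, at 9.81% of the higher, 10.9% of the lower and 10.3% of the genes not called.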

How the data were processed

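RNA of B220+ splenocytes from 12 mice, 3 per group, was sequenced. The deposited values are raw read counts per gene, 1 column per mouse; per the submitters' processing notes bcl2fastq 1.8.4, TopHat2 2.1.0, HTSeq 0.6.1 and mm10 were used. No annotation, strand setting or read length is stated in the sources used here. Counts were fitted with edgeR 4.0.16 (R 4.3.3, limma 3.58.1): filterByExpr, TMM scaling, and a robust quasi-likelihood test on 4 groups with all 12 libraries, so that the groups share 1 estimate of spread. Calls needed an adjusted p under 0.05 (Benjamini-Hochberg, over the 12878 tested genes). CPM values use TMM-scaled library sizes. SE is that of the log2 fold change.

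Named genes were MAX's partners, the 15 largest called increases and decreases with a mean of at least 5 CPM and groups that did not overlap, leading and abundant members of each gene list, and 6 genes in each direction for the difference between backgrounds; others are said to be chosen after their values were seen, and Nuggc, Adamts17 and members quoted only to describe a list were too. The members and lists were chosen with earlier results of these data known. Alternatives were other scalings, filters, DESeq2 1.42.0, a replicate term, a 1.5-fold threshold, only the 6 libraries, each library left out, and a term for sex chosen after seeing the data. On simulated counts for this comparison (12886 genes) the test found 47.8% of 1.5-fold and 100% of 2-fold changes, with 13 false among 178 calls. The simulation gave every gene the same spread between mice (a coefficient of variation of 13.7%). It changed only genes with a mean of at least 5 CPM. These shares therefore do not hold for genes that vary more between mice or have fewer reads. A few genes that the naming rule covers are not reported here.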

Additional observations from a re-analysis of the deposited data

Results flagged for a closer look

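The effect of Max loss differed between mice without and with the EuMyc transgene for 7175 genes by edgeR's quasi-likelihood test of the difference itself. Values below are the log2 fold change without the transgene minus that with it, so a negative value is a lower response without it. The EuMyc groups were not balanced for sex, and its part in single genes was not tested here.

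Among MAX's partners the difference was called for Myc (1.21), Mycl (-2.68), Mxd1 (-1.75) and Mxd4 (0.76). Reads of the transgene could be counted as Myc in the EuMyc libraries, and their part in its difference was not tested. Among the largest decreases it was -3.89 for S1pr2, -2.15 for Mybl1, -4.91 for Jchain, -6.46 for Gcsam, -1.12 for Eaf2, -1.03 for Nid1, -1.72 for Irgc1, 1.25 for Diras2 and -2.66 for Gad1. Among the largest increases it was 0.70 for Stag3, -1.20 for Hspg2, -1.47 for Arrdc4, 3.42 for Nr1d1, -3.10 for Il9r, 1.71 for Camk2a, 2.22 for Ptprs, 1.32 for Znrf3, -1.12 for Per2 and 1.39 for Tbc1d24. The lowest other differences were in Prg2 (-6.75), Fras1 (-5.47), Rgcc (-5.23), Abcb1a (-5.21) and Ackr3 (-5.04). The highest were in Enpep (6.26), Rbm24 (6.16), Uchl1 (5.30), Hspa12b (5.30), Ltbp4 (4.54) and Smtnl2 (4.25).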

How the results depend on the processing

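The count of 1933 called genes ranged from 808 to 1565 when 1 of the 6 libraries was left out, with 397 to 729 higher and 411 to 836 lower. A test against a 1.5-fold change called 90 genes, 50 higher and 40 lower. The 6 EuMyc libraries enter this comparison only through the estimate of spread, the filter and the TMM scaling. Leaving out 1 of them gave 1523 to 2563, lowest without EuMyc Max KO library 2 and highest without EuMyc Max KO library 3. The other scalings, filters and tools and the fit to the 6 libraries alone gave 1637 (no filter on low counts) to 2501 (DESeq2). No named call changed sign while called, and 119 of 184 named calls held in all 6 fits that left out a library. With the replicate number as a block 1738 genes were called, 881 higher and 857 lower. Same-numbered libraries had correlated deviations of 0.179, 0.344 and 0.0951, and each library correlated best with its own number. For Max WT library 3 the margin was small, with 0.091 for Max KO library 1. Libraries 2, with 0.344, were those of the 6 with Y-linked transcripts, and the part of sex in this match was not tested. The match is a hint from the data and not the design, and the labels do not say that numbers pair mice. Changes under 1.5-fold and genes with few reads are at the limit of this depth and of 3 mice per group.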
